A study of Mus musculus with 3 samples.

Results

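The alternative last exons of mouse genes were examined in embryonic stem (ES) cells with and without Pcgf1, the Pcgf subunit that defines the variant Polycomb complex PRC1.1. A gene was a member if a single gene name had at least 2 different last exons listed in every sample. This rule gave 3531 genes. From these, 5 names that had taken the form of a date and 6 genes listed on more than 1 chromosome or strand were left out. The remaining 3520 genes held 9786 last exons, out of 26389 gene names with any last exon. Of the 3520 genes, 1990 had 2 last exons, 843 had 3 and 687 had 4 or more, up to 14.

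The study compared C57BL/6 ES cells of 3 genotypes, with 1 RNA-seq sample each: wild-type cells (WT), the knockout Pcgf1KO (Pcgf1-/-), and the knockout re-expressing Pcgf1 with a FLAG tag, Pcgf1KO+ Pcgf1_flag (Pcgf1-/-+Pcgf1, or "after re-expression"). The knockout was 1 established line made by CRISPR/Cas9 with a pair of guide RNAs in exons 2 and 3, and the re-expressing cells were derived from it by viral infection, so they carry the same deletion. The cells grew on a feeder layer of mouse embryonic fibroblasts, and RNA with a poly(A) tail was sequenced. With 1 sample per genotype there was no replicate error, no test between genotypes could be made, and every difference reported is a difference between 3 samples.

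Most mammalian genes can end at more than 1 place. Where the alternative ends lie in different last exons, the choice changes the C-terminus of the protein as well as the 3′ end of the mRNA, and it depends on splicing to one last exon or the other and on cleavage and polyadenylation at a poly(A) signal. Cleavage is directed by the hexamer AATAAA, or by its most common variant ATTAAA, a short distance upstream of the cut, and such choices are known to differ between stem cells and differentiated cells. A last exon was defined here by the position where it begins, so poly(A) sites that follow each other within the same last exon counted as 1. Each last exon had an FPKM (fragments per kilobase of transcript, scaled to the size of the library), which already allows for length, and its share is that FPKM as a percentage of the sum over the last exons of the gene. Proximal and distal mean nearer to and farther from the start of the gene along the transcribed strand, judged by where the last exon begins. Overlapping last exons can end in the other order.

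Genes with 2 last exons in use show what such a choice looks like in sequence. The following stretches come from GENCODE vM21 transcripts (mm10 build) and lie at the 3′ ends of last exons whose shares are described further on. Each is written 5′ to 3′ on the strand of the gene, and capitals mark the poly(A) hexamer.
Atp2a2 last exon 3 of 4, chr5:122456340-122456369, minus strand: gtttaaaagaaaAATAAAacattttaaatg
Atp2a2 last exon 4 of 4, chr5:122453523-122453552, minus strand: tgatttcaggtaAATAAAtctattctacga
Lamp2 last exon 3 of 5, chrX:38419513-38419542, minus strand: tgcttctaaatcAATAAAgattcttttatt
Lamp2 last exon 4 of 5, chrX:38405067-38405096, minus strand: cttactggaattAATAAAcactgcttgacc
Hnrnpa2b1 last exon 4 of 5, chr6:51462764-51462793, minus strand: catttatgatttAATAAAataattctaaag
Hnrnpa2b1 last exon 5 of 5, chr6:51461125-51461154, minus strand: caagttttataaAATAAAtacttttgtatc
Ppp3cb last exon 2 of 3, chr14:20507677-20507706, minus strand: attttgcatgaaAATAAAaaaattatacgt
Ppp3cb last exon 3 of 3, chr14:20499367-20499396, minus strand: gtctaatgcaatATTAAAttgtaaaccaat
Psip1 last exon 3 of 5, chr4:83461877-83461906, minus strand: cgaaaattttaaAATAAAgtttttttaaaa
In Atp2a2, Lamp2, Hnrnpa2b1 and Ppp3cb, both last exons in use ended with a hexamer of their own, and in Ppp3cb the distal one had the variant. Psip1 is shown with its proximal end only, as its distal last exon as listed matched no annotated transcript in both start and end.

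The level of the targeted gene, Pcgf1, was 14.0 FPKM in WT, 5.88 in Pcgf1-/- and 7.86 after re-expression. The paper reported a truncated Pcgf1 transcript in the knockout and found no Pcgf1 protein there. A level summed over the gene does not separate truncated from complete or FLAG-tagged RNA, so it does not measure the knockout or the re-expression. Pcgf1 had 1 listed last exon in each sample and is not a member. The ES cell markers Pou5f1 (670, 518 and 626 FPKM), Utf1 (600, 678 and 464) and Zfp42 (35.5, 51.7 and 35.7) were high in WT, Pcgf1-/- and Pcgf1-/-+Pcgf1. Other ES markers had a level of exactly 0: Sox2 was at 0 in WT and Pcgf1-/- and at 29.3 in Pcgf1-/-+Pcgf1, and Dppa5a was at 1293, 0 and 0. A gene with no row under its single name in a sample was also given 0. An exact 0 therefore does not show that a gene was silent. The 9 fibroblast markers summed to 17.7, 7.77 and 18.3 FPKM, with Postn and Fap at 0 in all 3 samples. Thy1 alone made up 14.2, 6.39 and 13.5 FPKM of these sums, while Dcn was at 0.352, 0.779 and 1.18, and their part in the results was not tested. In such bulk samples, fewer cells of a type and less RNA per cell cannot be told apart. Among low values inside a preset window, the median FPKM times length in kilobases was 0.0517 in WT, 0.0491 in Pcgf1-/- and 0.0503 after re-expression. The same narrow window was used for each sample and holds the medians close together, so they do not show that depth was similar. The depth itself is unknown.

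Of the 3520 genes, 1847 were above 0 in every sample, 1248 were at 0 in all of them, and 425 were above 0 in 1 or 2. Shares were compared in genes with a summed last-exon level of at least 5 FPKM, which 974 genes reached in all 3 samples. In most of these genes the level lay almost wholly on 1 last exon. A single last exon held at least 95% of the level in 836 genes in WT (85.8%), 848 in Pcgf1-/- (87.1%) and 833 after re-expression (85.5%). At least 2 last exons with a share of 10% or more were found in far fewer: 123 genes had 2 such exons in WT, 115 in Pcgf1-/- and 128 after re-expression, and 11, 9 and 10 genes had 3 or more. Most of the summed level was thus listed on few of the last exons.

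The last exon with the largest share, called the main last exon here, was usually the most distal one of the gene. This was so in 760 of 974 genes in WT (78.0%), 754 in Pcgf1-/- (77.4%) and 758 after re-expression (77.8%), while the most proximal one was the main one in 83, 81 and 80 genes. The mean share of the most distal last exon was 77.2% in WT, 77.3% in Pcgf1-/- and 77.3% after re-expression, so across the genes the balance between proximal and distal ends differed by less than 1 percentage point among the samples. The same main last exon was found in all 3 samples in 941 genes (96.6%). It differed in WT alone in 12 genes, in Pcgf1-/- alone in 9 and in Pcgf1-/-+Pcgf1 alone in 7, and 5 genes had a different one in each sample. The 9 genes in which Pcgf1-/- stood apart were Camta1, Ccdc127, Commd9, Eapp, Efcab14, Fbxw8, Hnrnpk, Mapk8 and Pbdc1.

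The last exons in use were overwhelmingly those of protein-coding transcripts. Each gene's level fell on last exons of coding transcripts to a mean of 96.8% in WT, 97.1% in Pcgf1-/- and 96.5% after re-expression, although these were 1604 of the 3081 last exons of the 974 genes. Last exons of transcripts annotated as retained introns, in which an unspliced intron runs to the end, were 830 of the 3081 but took 0.889%, 0.720% and 0.991% of the level. Ends of transcripts marked for nonsense-mediated decay, the pathway that destroys mRNAs with a premature stop codon, took 0.122%, 0.166% and 0.258%. Last exons that start at no exon annotated in GENCODE vM21 took 1.15%, 0.588% and 0.972%, and where they came from was not tested.

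Poly(A) hexamers were more frequent at the ends in use than at unused ends of the same genes. Among main last exons with an annotated end, 613 of 878 in WT (69.8%), 69.5% in Pcgf1-/- and 69.4% after re-expression had AATAAA or ATTAAA in the 40 bases before the end. In the same genes, 347 of the 1822 last exons that were at 0 in all 3 samples had one (19.0%). Among the unused last exons of coding transcripts the figure was 31.7%, and among those of retained introns 13.0%. For comparison, 30.1% of all 130555 annotated transcript ends held a hexamer in this window. The ends were searched on the transcribed strand only, ATTAAA was counted where AATAAA was not found, and an annotated end need not be the end used in these cells.

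**Figure D1:**
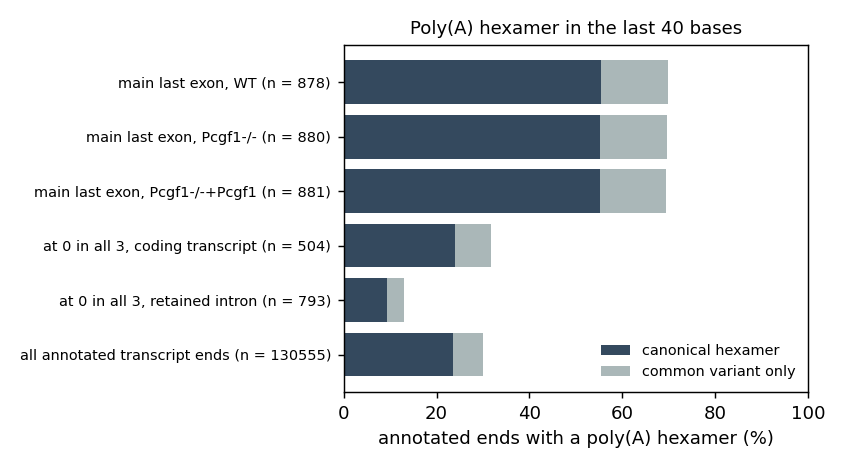
Percentage of annotated transcript ends with a poly(A) hexamer in their last 40 bases (x axis), split into the canonical hexamer and its common variant, for the main last exons of each sample, for last exons at 0 in all 3 samples in the same genes, and for all annotated ends. The 3 bars of main last exons reach 69.8%, 69.5% and 69.4%, and unused last exons of coding transcripts and retained introns reach 31.7% and 13.0%.

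In 77 genes, at least 2 last exons each held 10% or more of the level in every sample. In these genes, where both ends were measured each time, the largest change of a share had a median of 5.14 percentage points between Pcgf1-/- and WT, 4.92 between Pcgf1-/-+Pcgf1 and Pcgf1-/-, and 4.95 between Pcgf1-/-+Pcgf1 and WT. It stayed under 10 points in 54, 59 and 55 of the 77 genes. The 3 medians lay within 1 point of each other. These genes were chosen by the same shares, so genes left with a single last exon in use in any sample were excluded. Small changes are thus partly fixed by the choice and do not show that last-exon use was steady. The next paragraphs describe 14 genes whose last-exon isoforms are well known or whose proteins are widely studied, and which were chosen after their values had been seen. In 9 of the 14 the last exons in use lie apart, and in 5 they overlap and differ in where they begin.

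Psip1 encodes the chromatin-bound LEDGF protein, whose short form ends at the proximal last exon and lacks the part of the long form that binds HIV integrase. Its proximal last exon in use (chr4:83461871-83462473) had 33.9 FPKM in WT, 28.5 in Pcgf1-/- and 32.2 after re-expression, and its distal one (chr4:83454847-83457079) had 44.5, 36.3 and 39.8. The share of the proximal exon was accordingly 43.3%, 44.0% and 44.7%, the narrowest range of the 14 genes. Nrp2, a neuropilin receptor whose forms differ in their membrane-proximal and cytoplasmic part, kept a similarly narrow range, with a proximal share of 17.1%, 20.1% and 19.1%.

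Atp2a2 encodes the SERCA calcium pump of the endoplasmic reticulum, whose muscle form and widely expressed form have different last exons. The proximal of its 2 last exons in use had 46.6 FPKM in WT, 53.6 in Pcgf1-/- and 52.3 after re-expression, and the distal one 8.55, 8.33 and 6.00. The proximal share of 84.5%, 86.6% and 89.7% was among the highest of the 14 genes. Hnrnpa2b1, an RNA-binding protein that acts in splicing and mRNA transport, split 305 and 172 FPKM between its proximal and distal last exons in WT, 302 and 150 in Pcgf1-/-, and 328 and 148 in Pcgf1-/-+Pcgf1. Its proximal share was 64.0%, 66.8% and 68.9%, so all 3 samples lay within 5 points of each other. Ppp3cb, a catalytic subunit of the calcineurin phosphatase, had a proximal share of 24.2%, 30.5% and 29.9%.

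Larger ranges were seen in Lamp2 and Kif1b. Lamp2 encodes a lysosomal membrane protein whose variants differ in the transmembrane and cytosolic tail. Its proximal last exon held 66.8% of the level in WT, 60.2% in Pcgf1-/- and 73.9% after re-expression, at gene levels with few FPKM (the distal last exon had 3.40, 2.24 and 1.55). In Kif1b, a kinesin motor whose long and short forms carry different cargo, the proximal share was 31.6%, 44.2% and 37.4%, with Pcgf1-/- the highest.

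In the JNK kinases Mapk8 and Mapk9, the last exons in use begin 5 bases apart, which shifts the reading frame and gives the known long and short C-terminal tails. Mapk8 had a share of 31.8% for the upstream start in WT, 50.1% in Pcgf1-/- and 31.5% after re-expression. The FPKM of this exon were 4.66, 6.57 and 4.30, against 9.99, 6.55 and 9.37 for the other. WT and Pcgf1-/-+Pcgf1 were nearly equal and Pcgf1-/- stood apart by about 18 points, less than the 25 points used as the threshold for a shift. Mapk9 had 23.7%, 27.7% and 29.8% and showed no such separation. Hnrnpk, an RNA-binding protein, also differed most in Pcgf1-/-, with an upstream share of 41.0%, 56.3% and 48.5%, where its starts lie 60 bases apart. Cbx1, which encodes the heterochromatin protein HP1 beta, had 65.6%, 64.3% and 62.2% on the upstream start, which is annotated for a decay-marked transcript, and Ctbp1, a transcriptional corepressor, had 88.6%, 88.5% and 82.5%.

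Npm1 and Slc25a4 each show a limit of the values. Npm1, the abundant nucleolar chaperone nucleophosmin, had 3 last exons in use in WT and Pcgf1-/-, and its most proximal one was listed at 566 FPKM in WT, 665 in Pcgf1-/- and exactly 0 in Pcgf1-/-+Pcgf1. The other last exons of Npm1 had 797, 924 and 1138 FPKM for the middle one and 1401, 1166 and 1349 for the distal one. In Slc25a4, the mitochondrial ADP/ATP carrier, the proximal end in use belongs to a retained-intron transcript, whose share was 38.5%, 43.0% and 27.3%.

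**Figure D2:**
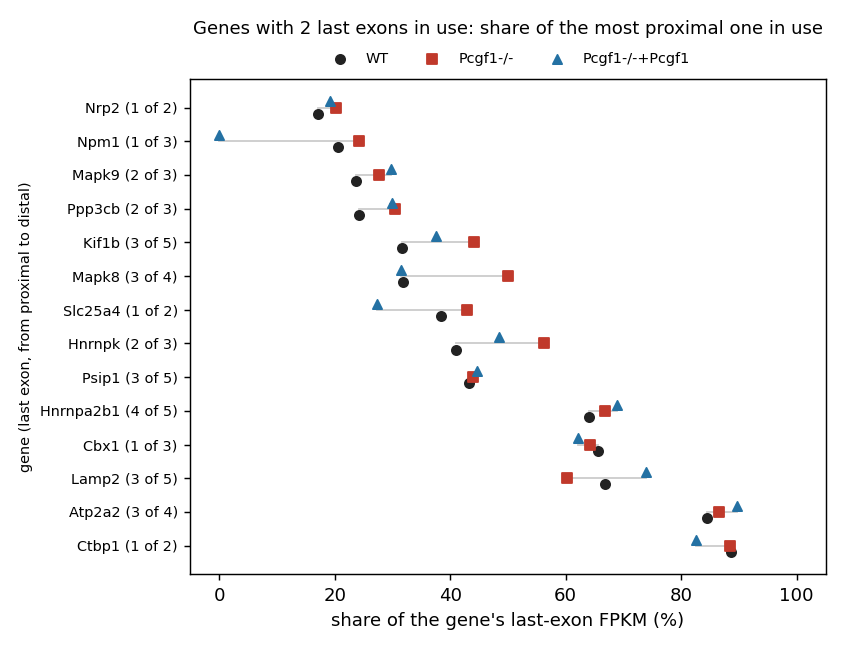
Share of the gene's summed last-exon FPKM (x axis, percent) for the most proximal last exon in use in 14 genes with at least 2 last exons in use, with 1 symbol per sample. The 3 symbols of Psip1 (43.3%, 44.0% and 44.7%) nearly coincide, those of Mapk8 spread from 31.5% to 50.1%, and Npm1 in Pcgf1-/-+Pcgf1 lies at 0.

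To ask whether loss of Pcgf1 came with a change in the choice of last exon, a gene was called shifted when the share of any last exon differed by at least 25 percentage points, among genes of at least 5 FPKM in both samples compared. Between Pcgf1-/- and WT, 58 of 998 genes were shifted, which is 5.81% of the genes compared. The same rule called 55 of 997 genes between Pcgf1-/-+Pcgf1 and Pcgf1-/- (5.52%) and 58 of 1012 between Pcgf1-/-+Pcgf1 and WT (5.73%). The comparison of the knockout with WT thus called as many genes as that of the re-expressing cells with WT. In each comparison most genes did not move: the largest change was under 1 point in 832, 832 and 831 genes, and its median was 0. A change of 50 points or more was seen in 16, 16 and 15 genes.

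The counts showed no clear common direction of the shifts. Between Pcgf1-/- and WT, more distal last exons gained in 32 of the 58 shifted genes and more proximal ones in 26, which is 55.2% distal (exact binomial 95% interval 41.5% to 68.3%, covering counting error over genes only). In Pcgf1-/-+Pcgf1 against Pcgf1-/- the distal share was 41.8% (28.7% to 55.9%), with 23 genes moving distally and 32 proximally. In Pcgf1-/-+Pcgf1 against WT it was 50% (36.6% to 63.4%), with 29 genes each way. Each interval includes an even split but is wide, so a lean in either direction is not excluded.

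Nearly all shifted genes had a moved last exon at exactly 0 in 1 of the samples compared, where a last exon missing from a sample's list counted as 0. This was so in 53 of 58 genes between Pcgf1-/- and WT, in 52 of 55 between Pcgf1-/-+Pcgf1 and Pcgf1-/-, and in 54 of 58 between Pcgf1-/-+Pcgf1 and WT. These counts include 23, 23 and 27 genes in which a last exon that moved was missing from the list of one sample. In 34, 33 and 33 of the shifted genes every last exon that moved started at an annotated last exon. The last exons that moved overlapped each other in 16, 12 and 8 genes. A shift changed which last exon was the main one in 20, 18 and 20 genes. Whether the exact zeros reflect RNA or transcript assembly was not tested.

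**Figure D3:**
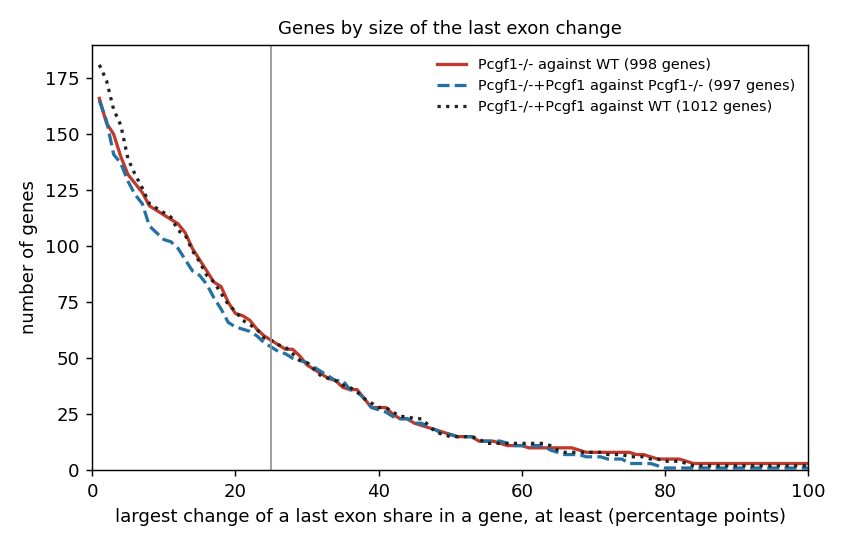
Number of genes (y axis) whose largest change of a last exon share reached at least the value on the x axis (percentage points), for the 3 comparisons. The vertical line marks 25 points, where the curves stand at 58, 55 and 58 genes.

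The 5 shifted genes between Pcgf1-/- and WT without an exact 0 in a moved exon were Aldh16a1, Bptf, Brd7, Dtx3 and Eapp; as a set they were picked out after their values had been seen. Aldh16a1, an aldehyde dehydrogenase family member, had 9.63 FPKM on the fourth of its 5 last exons in WT, 14.0 in Pcgf1-/- and 15.7 after re-expression, and 12.2, 4.34 and 5.00 on the most distal one. The share of the fourth was 44.1%, 76.3% and 75.8%, so WT stood apart and the re-expressing cells lay beside the knockout. Dtx3, a Deltex-family ubiquitin ligase, had a share of 61.2%, 88.1% and 83.6% on its most distal last exon, again with WT lowest. Eapp, an E2F-binding phosphoprotein, had 28.1%, 54.9% and 21.8% on the fifth of its 6 last exons, with Pcgf1-/- the highest. Bptf, the large subunit of the NURF remodeling complex, had 47.1%, 18.1% and 0% on the second of its 4 last exons.

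Brd7, a bromodomain subunit of the PBAF remodeling complex, used several ends in each sample. The third of its 5 last exons, which belongs to the coding transcript, held 40.5% in WT, 18.1% in Pcgf1-/- and 25.8% after re-expression. In Pcgf1-/- the fourth held 52.0% and in Pcgf1-/-+Pcgf1 a last exon of 66 bases that matches no annotated exon held 74.2%. Brd7 thus had a different main last exon in each of the 3 samples. With overlapping last exons merged, the merged last exon changed by 7.39 points between Pcgf1-/- and WT. The second last exon, which overlaps no other, still went from 16.7% in WT to 0% in Pcgf1-/-.

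The 20 largest changes between Pcgf1-/- and WT, in genes of at least 5 FPKM in all 3 samples, are described next because they follow the rule for named genes. Merging overlapping last exons into 1 ended the change in 6 of the 20 genes, Ccdc127, Commd2, Efcab14, Fbxw8, Pbdc1 and Rnaseh2c (0 points each). In Erlec1 it left 2.85 points in the merged last exon. The fourth of its 8 last exons, which overlaps no other, still went from 0% in WT to 17.4% in Pcgf1-/-. In each of the 20, a last exon that moved was at 0, or held the whole level, in 1 of the 2 samples. In 10 of the 20 genes every last exon that moved was an annotated one, and in the other 10 at least 1 was not. The other 37 shifted genes of this level had largest changes between 25.2 and 44.6 points, and 1 more shifted gene, Cep295 (57.9 points), was under 5 FPKM in Pcgf1-/-+Pcgf1. At the threshold, Fbxo17 (25.2 points) and Mat2a (25.7) were just inside, and Nt5dc1 (24.0) and Fbxw2 (24.4) just outside. Poly(A) hexamers at the annotated ends of some of the last exons involved follow, written 5′ to 3′ on the strand of the gene with the hexamer in capitals.
Smyd3 last exon 3 of 3, chr1:179377542-179377571, minus strand: agcagaaaacacAATAAAacaaaaaatgta
Ccdc127 last exon 1 of 2, chr13:74365748-74365777, plus strand: gattgcttctcaAATAAAgttgtattgcaa
Commd9 last exon 3 of 3, chr2:101901605-101901634, plus strand: gaaagggttggaAATAAAtaacggtgatgg
Mrpl39 last exon 2 of 3, chr16:84717580-84717609, minus strand: gaaaatgttgtaAATAAAaatatcatatac
Efcab14 last exon 3 of 3, chr4:115777293-115777322, plus strand: ttaatttatctaAATAAAacattacgtttc

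Among the largest changes between annotated last exons, Smyd3, a SET and MYND domain methyltransferase, was listed in WT at 12.05 FPKM on the second of its 3 last exons (chr1:179395224-179395831, mm10), and at 0 there in the other samples. Its most distal last exon (chr1:179377535-179377799), of a noncoding transcript and with the hexamer shown above, was at 0 in WT, 17.95 FPKM in Pcgf1-/- and 20.8 after re-expression. The share of the second last exon was therefore 100% in WT and 0% in both samples that carry the deletion. Ccdc127 moved in the knockout and was intermediate in the re-expressing cells. Its last exon that begins first, which has the hexamer shown above, was at 0 FPKM in WT, 13.5 in Pcgf1-/- and 7.53 after re-expression. The other one was at 14.0, 0 and 8.79. The exon that begins first thus had a share of 0%, 100% and 46.1%. The last exons overlap, and the one that begins first (chr13:74356456-74365783) ends farther downstream than the other (chr13:74360605-74361085).

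Retsat encodes retinol saturase, an enzyme of vitamin A metabolism. Its proximal last exon had 4.31 FPKM in WT, 0 in Pcgf1-/- and 2.94 after re-expression, a share of 75.1%, 0% and 47.4%. The gene 1110051M20Rik had 68.9%, 0% and 40.5% on the fourth of its 5 last exons, and Efcab14 had 56.4%, 0% and 57.9% on its most distal one, which ends with the hexamer shown above. In these genes Pcgf1-/- was the lowest, and both other samples were above 40%. The Efcab14 last exons overlap, and merged into 1 they show a change of 0 points. Rnaseh2c, a subunit of RNase H2, which removes ribonucleotides from DNA, showed the other order, with 41.6 FPKM on a proximal last exon of 54 bases in WT and 0 in both other samples, a share of 83.8%. The last exons of Rnaseh2c also overlap, and its change was 0 points when they were merged. Diexf, a nucleolar protein, likewise had 48.2% on the third of its 4 last exons in WT and 0% in both other samples.

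Ends of retained-intron transcripts moved in 4 of the 20 genes, Commd9, Nvl, Elp4 and Tmem5. Commd9, a COMM domain protein of endosomal sorting, had 28.1 FPKM on a retained-intron last exon in WT, 0 in Pcgf1-/- and 39.1 after re-expression, while the coding last exon, with the hexamer shown above, changed little at 13.7, 19.0 and 13.4. The retained-intron share was 67.2%, 0% and 74.6%, so the knockout stood apart. Nvl, an AAA ATPase of ribosome assembly, had a retained-intron last exon at 0, 18.9 and 24.6 FPKM and a short last exon, not annotated, at 21.1, 0 and 0. The coding last exon of Nvl stayed at 4.40, 5.83 and 5.72. Elp4, an Elongator subunit, had a retained-intron share of 77.5% in WT alone, and its main last exon differed in each sample. Tmem5, a glycosyltransferase of dystroglycan modification, had a retained-intron share of 45.1% in WT alone.

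The remaining named genes moved onto or off last exons that match no annotated last exon. Mrpl39, a protein of the mitochondrial ribosome, had 23.1, 37.2 and 59.1 FPKM on its coding last exon, whose hexamer is shown above, and 26.8, 0 and 0 on one of 63 bases that is not annotated. The exon without annotation thus held 53.7% in WT and 0% in both other samples. In Fbxw8, a substrate receptor of a cullin ubiquitin ligase, the moved exon was 2 bases long, with a share of 60.7%, 0% and 68.2%. In Commd2, it was 4 bases long, with a share of 48.0% in WT alone. Lengths of 2 and 4 bases are shorter than a poly(A) hexamer.

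Rfc5, a subunit of the clamp loader of DNA replication, had all its level on an unannotated last exon in WT (38.0 FPKM) and on an exon annotated as an inner one in Pcgf1-/- (57.9) and Pcgf1-/-+Pcgf1 (56.7). Gga2, an adaptor of Golgi sorting, had an unannotated last exon at 49.9% in WT alone, while its coding last exon held 50.1%, 60.4% and 59.8% and a last exon of a decay-marked transcript 0%, 39.6% and 40.2%. Pbdc1 had an unannotated last exon at 53.2%, and Ttc21b, a component of the machinery that carries proteins in cilia, had one annotated as an inner exon at 46.9%, both in Pcgf1-/- alone. In Camta1, a calmodulin-binding transcription activator, an exon annotated as an inner one held 78.1% in Pcgf1-/- and 0% in the other samples. Erlec1, a lectin of the endoplasmic reticulum, kept 36.2%, 31.9% and 51.0% on a coding last exon and divided the rest among ends that were mostly found in 1 sample each.

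**Figure D4:**
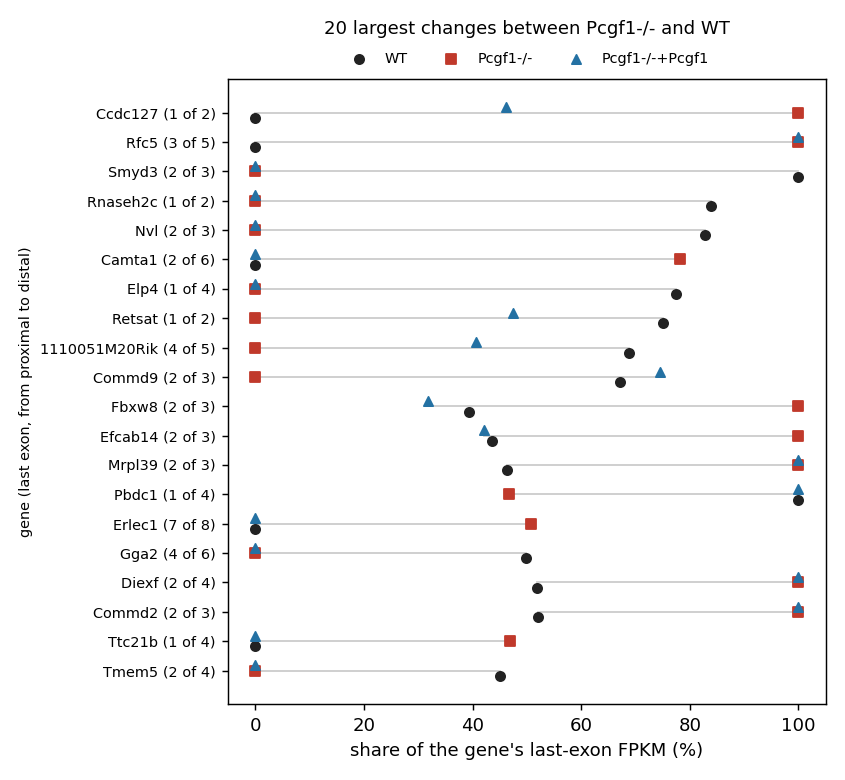
Share of the gene's summed last-exon FPKM (x axis, percent) in each sample, for the last exon that changed most between Pcgf1-/- and WT in the 20 genes with the largest changes. Where a pair of last exons changed equally, the more proximal one is plotted. The symbols of Pcgf1-/-+Pcgf1 lie with WT in some genes (Pbdc1, 100% in both) and with Pcgf1-/- in others (Smyd3, 0% in both).

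Re-expression of Pcgf1 was followed through the shifts between Pcgf1-/-+Pcgf1 and each other sample, which share samples with the comparison above and are given side by side. Several large shifts were seen in Pcgf1-/-+Pcgf1 alone. Mpg, a DNA glycosylase of base excision repair, had 22.6 FPKM on its distal, coding last exon in WT, 32.4 in Pcgf1-/- and 14.1 after re-expression, and a proximal last exon of a decay-marked transcript at 0, 0 and 55.1. The coding share fell from 100% in both other samples to 20.4%. Polg, the catalytic subunit of the mitochondrial DNA polymerase, had a retained-intron last exon at 0%, 0% and 71.2%, and its coding last exon had 11.2, 11.6 and 2.64 FPKM. The ends gained by Polg and Mpg were thus listed at 0 in WT and Pcgf1-/-.

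First exons were compared by the same measure. Of the shifted genes with at least 2 first exons, a first exon share had moved by 25 points or more in 1 of 12 between Pcgf1-/- and WT, 0 of 12 between Pcgf1-/-+Pcgf1 and Pcgf1-/-, and 2 of 17 between Pcgf1-/-+Pcgf1 and WT. Among genes without a last-exon shift it had moved in 43 of 282 (15.2%), 42 of 277 (15.2%) and 26 of 271 (9.59%). At gene level, 5 of 58, 4 of 55 and 3 of 58 shifted genes differed by more than 2-fold (8.62%, 7.27% and 5.17%), beside 1.40%, 2.11% and 1.09% of all genes compared.

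Of 23 genes for cleavage and polyadenylation factors, 6 were members: Wdr33, Sympk, Cpsf6, Pcf11, Papolg and Snrnp70. None of the 6 was shifted between Pcgf1-/- and WT, beside 5.81% of all genes compared. Between Pcgf1-/-+Pcgf1 and Pcgf1-/-, Sympk and Cpsf6 were shifted, beside 5.52% of all. Sympk, the scaffold symplekin, had a proximal retained-intron last exon at 14.8% in WT, 0% in Pcgf1-/- and 35.6% after re-expression. Cpsf6, the larger partner in cleavage factor Im, had one at 0%, 0% and 36.7%, with 15.6 FPKM in Pcgf1-/-+Pcgf1. The last exons of Cpsf6 summed to 23.6 FPKM in WT and 23.5 in Pcgf1-/-, below first-exon sums of 34.7 and 39.5. After re-expression both sums were 42.5. In WT and Pcgf1-/- the shares of Cpsf6 thus cover only part of its level. Between Pcgf1-/-+Pcgf1 and WT, 1 of the 6 was shifted, Cpsf6, beside 5.73% of all.

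Because these factors choose the ends of mRNAs, their own levels are given over all their transcripts. At gene level 5.73% of all 14176 genes were more than 2-fold higher in Pcgf1-/- than in WT and 11% more than 2-fold lower. Of the 20 factors in the files, 0 were higher and 1 was lower. The background holds every gene above 0 in either sample, while all 20 factors were above 5 FPKM in each sample. Among the 998 members of at least 5 FPKM in both samples, 1.40% differed by more than 2-fold in either direction. The factor that was lower was Nudt21, the small subunit of cleavage factor Im, which binds RNA upstream of poly(A) sites. It was at 128 FPKM in WT, 39.2 in Pcgf1-/- and 38.4 after re-expression. WT was thus alone in its high level, and the log2 ratio on FPKM plus 0.1 was −1.70 between Pcgf1-/- and WT and −0.03 between Pcgf1-/-+Pcgf1 and Pcgf1-/-. The partners of Nudt21 did not follow it: Cpsf6 was at 34.7, 39.5 and 42.5 FPKM and Cpsf7 at 23.9, 21.6 and 19.6. The median log2 ratio of the list was −0.15, beside −0.06 over 5875 genes above 5 FPKM in all samples.

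The other factors stayed within 2-fold by the larger of the first-exon and last-exon sums. The sums differed in some factors: Snrpc had first-exon sums of 190, 33.8 and 161 FPKM and last-exon sums of 190, 189 and 161. The subunits Cpsf1 (37.8, 28.9 and 28.4 FPKM), Cpsf2 (19.2, 15.4 and 15.3), Cpsf3 (47.2, 41.4 and 36.8) and Cpsf4 (37.3, 33.6 and 33.2), of the complex that binds the hexamer and cuts the RNA, were all highest in WT. Cstf1, of the cleavage stimulation factor, was highest in Pcgf1-/- (27.0, 36.2 and 24.3), and the poly(A) polymerase Papola was nearly level at 50.3, 50.8 and 53.4. Pcf11, which also terminates transcription, was at 9.79, 12.29 and 11.99 FPKM.

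**Figure D5:**
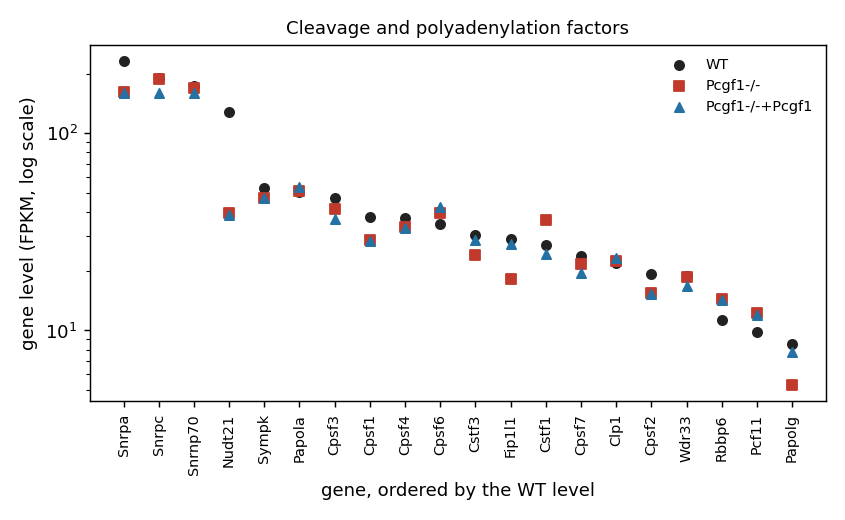
Gene level (y axis, FPKM, log scale) of 20 cleavage and polyadenylation factors in the 3 samples, ordered by the WT level. Nudt21 is at 128 FPKM in WT and near 39 in both other samples, and in the other 19 genes the ratio of Pcgf1-/- to WT is within 2-fold.

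Other gene groups were read against the same background. Of 14 genes known for alternative last exons, 6 were members, among them Cdc42, Tpm2, Flt1 and Pcf11, and 3 of the 6 were at 5 FPKM or more in all samples. Of these 3, 0 were shifted in any comparison. Cdc42, a small GTPase with a brain form and a widely expressed form, had 100% of its level on 1 last exon in every sample (227, 226 and 192 FPKM). Tpm2 and Pcf11 also used 1 last exon throughout. Flt1, a VEGF receptor with a soluble form that ends early, had 51.5%, 70.4% and 50.9% on the proximal end in use, but at only 0.20, 0.39 and 0.20 FPKM on that exon, too low to read. Of 32 Polycomb genes 9 were members and 0 of the 4 that were compared were shifted, beside 5.81%, 5.52% and 5.73% of all genes, a number too small to read. No pluripotency gene of 18 was a member.

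Of 27 splicing regulators 8 were members, and 0 of the 6 that were compared were shifted between Pcgf1-/- and WT, beside 5.81% of all genes. In each other comparison 1 of the 6 was shifted, beside 5.52% and 5.73% of all. This was Tra2b, a splicing activator whose own transcript has a known poison exon. Its coding last exon had 131 FPKM in WT, 126 in Pcgf1-/- and 48.8 after re-expression, and a retained-intron last exon had 0, 0 and 84.1. The retained-intron share was 63.3% in Pcgf1-/-+Pcgf1, and the gene as a whole stayed at 131, 126 and 133 FPKM.

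Finally, 51 members were above 5 FPKM in 1 sample and at exactly 0 over all their last exons in another, so that no share could be given there. Of these, 32 were at 0 in WT, 24 in Pcgf1-/- and 23 after re-expression. They included genes for abundant cell components. Rps18, a protein of the small ribosomal subunit, was at 0 in WT and Pcgf1-/- and at 1644 FPKM in Pcgf1-/-+Pcgf1. Hspa9, the mitochondrial Hsp70 chaperone, was at 0, 212 and 0, Jup, the junction protein plakoglobin, at 0, 141 and 0, and Suclg1, a subunit of succinyl-CoA ligase, at 93.1, 0 and 0. Ribosomal protein genes are used in every cell, so these zeros are given as listed and were not read as loss of expression.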

How the data were processed

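RNA-seq of 3 mouse ES cell samples, 1 per genotype, was analysed. The authors sequenced poly(A)-enriched RNA with 150 bp paired-end reads and mapped it to mm10. The submitters' processing notes name TopHat2 2.0.12, Cufflinks 2.2.1 and HTSeq 0.6.0. The authors deposited 1 list of transcript events per sample, each event having its FPKM. Which tool wrote these lists is not given in the sources used here. No counts were given, so depth is unknown and no count test was run. A large part of last-exon rows was at exactly 0 (62.0% to 64.4%).

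Here, FPKM of last-exon rows were matched between samples by gene, strand and start, and shares were computed per gene. A last exon missing from a sample's list was set to 0 there. Shifts needed 5 FPKM in both samples and 25 percentage points. Rows with several gene names were not used. A few items are not reported here. Gene ratios used FPKM plus 0.1 and the larger of the first-exon and last-exon sums. A gene without such rows under its single name in a sample was given a level of 0. With 1 sample per genotype no test was made, and binomial 95% intervals cover counting error only. Last exons were matched to GENCODE vM21, in which 9127 of 9786 had a transcript of the same start and end. A further 19 last exons of genes found by symbol are annotated for another gene. The arithmetic of the shift calls was checked on copied WT values with planted changes and no added noise. That check gives no rate of false calls between real samples. Named genes were the 20 largest changes between Pcgf1KO and wildtype in genes of 5 FPKM or more in all samples, the 5 largest in each other comparison, shifted or textbook list members, and Pcgf1. The members and lists were chosen with earlier results of these data known. In all, 13 alternative settings of the calls were tried, 2 of them added after the data had been seen. Tables were computed in Python 3.11.15 (pandas 2.3.3, numpy 2.4.6), intervals with scipy 1.17.1 and plots with matplotlib 3.10.9.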

Additional observations from a re-analysis of the deposited data

How the results depend on the processing

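Counts of shifted genes are given in the order Pcgf1-/- against WT, Pcgf1-/-+Pcgf1 against Pcgf1-/-, and Pcgf1-/-+Pcgf1 against WT, where the main counts were 58, 55 and 58. A minimum of 1 FPKM gave 102, 99 and 101 genes, 20 FPKM gave 19, 14 and 21, and no minimum gave 232, 234 and 246. Thresholds of 10 points gave 114, 103 and 115, and 50 points gave 16, 16 and 15. Keeping only last exons listed in all 3 samples gave 35, 31 and 33, and only annotated last exons, a setting added after the data had been seen, gave 35, 33 and 36. Leaving out genes with an exact 0 in a moved last exon left 5, 3 and 4. Genes with at least 2 last exons at 10% in all samples, also added later, gave 5, 4 and 4 of 77. Requiring first-exon and last-exon sums within 5% gave 44, 40 and 38. A pseudocount of 1 FPKM gave 47, 45 and 43, and merging overlapping last exons 41, 41 and 48. The percentage of genes moving distally was recomputed with minima of 1 and 20 FPKM, thresholds of 10 and 50 points and merged last exons, and stayed within its main interval in these 5 settings. For 54 changes of named genes, only the last exon that had moved most was followed. Merging overlapping last exons brought 16 under 25 points, 13 of them to 0, and a pseudocount of 1 FPKM brought 7 under 25 points. In Brd7 the merged last exon changed by 7.39 points between Pcgf1-/- and WT. Another last exon of Brd7 still went from 16.7% in WT to 0% in Pcgf1-/-. The 1 call among cleavage factors, Nudt21, was found under all 4 alternatives, which did not include the first-exon sum alone. No paired analysis was possible because each genotype has 1 sample, and no replicate could be left out. Depth is unknown, and the shares carry no error from biological replicates.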

Other observations

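Beyond the genes named by rule, the 12 genes in which WT alone had another main last exon were 1110051M20Rik, Aldh16a1, Calcoco2, Fam220a, Mrpl39, Nvl, Retsat, Rfc5, Rnaseh2c, Smyd3, Tle1 and Ufl1. The 7 in which Pcgf1-/-+Pcgf1 alone did were Cenpc1, Cinp, Ip6k2, Kctd17, Mpg, Polg and Tra2b. Fam220a had at least 2 last exons in use in all 3 samples, and its largest change was 42.7 points between Pcgf1-/- and WT and 7.42 points between Pcgf1-/-+Pcgf1 and Pcgf1-/-. Fastkd1, a mitochondrial RNA-binding protein, had all its level on 1 coding last exon in WT (9.25 FPKM) and Pcgf1-/- (6.71), and 64.0% there in Pcgf1-/-+Pcgf1 (5.59).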
